A study of Mus musculus with 32 samples.

Results

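The comparison described here is that of whole femur marrow from 4 DTRADQ mice given diphtheria toxin (DT) for 3 days with marrow from 4 DTRADQ mice given none, 8 of the 32 libraries of the study, taken by their titles. Per the labels, DTRADQ mice come from a cross of iDTR mice, which carry a DT receptor that Cre recombinase switches on, with adiponectin-Cre mice, on a C57BL/6 background. They were 2 months old and received 100 ng of DT per mouse by intraperitoneal injection each day, or no DT. The controls (Con) were their Cre-negative littermates, 4 without DT and 4 with the same 3 days of DT. RNA was sequenced from total marrow RNA, 1 library per mouse as the design text gives 4 mice per group, and gene levels below are in CPM, counts scaled to library size after TMM normalization, listed in the order of replicates 1 to 4.

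Mouse cells lack a receptor that binds the toxin well, so a cell becomes sensitive where Cre has switched on the transgene, and the toxin then stops protein synthesis. Adiponectin-Cre is active in adipocytes and, in marrow, also in the perivascular stromal cells that make the chemokine CXCL12 and stem cell factor. These stromal cells support blood stem and progenitor cells and can give rise to adipocytes and bone-forming cells. The Cre driver therefore does not separate marrow stroma from fat inside or outside the marrow, and the labels do not say what the no-DT mice were injected with. In bulk marrow, fewer cells of a type and less RNA per cell cannot be told apart.

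The lane field of the labels names lane 8 for all 4 libraries of the 3-day group and a wildcard for the 4 without DT. No lane value holds both groups, so the lane label and the treatment cannot be told apart within DTRADQ mice. The same difference of label separates the control groups. Many results are therefore given beside the change in controls over the same 3 days or the test of the difference between the 2 changes (genotype by DT). A DTRADQ change printed without them is not set apart from a change shared with controls. Totals were 13.48 to 18.06 M counts without DT and 15.74 to 19.85 M at 3 days. The mitochondrial share of counts was 2.575% to 3.192% without DT and 1.599% to 1.911% at 3 days. The share in the 10 largest genes was 22.79% to 24.79% and 27.16% to 30.87%. These shares moved with the comparison, and their part in the results was not tested. Control replicates 3 and 4 without DT stood apart, with 37.41% and 50.69% of counts in their 10 largest genes, so the genotype-by-DT results were also computed without them. DTRADQ replicate 4 without DT carried more bone and muscle RNA than its group, as described with the bone genes.

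Of 14527 genes tested, 4264 (29.4%) passed an adjusted p of 0.05 in DTRADQ mice, 1823 higher (12.5%) and 2441 lower (16.8%) after 3 days of DT (edgeR quasi-likelihood test, Benjamini-Hochberg, n = 4 per group). In controls 4391 (30.2%) passed over the same 3 days, 2151 higher (14.8%) and 2240 lower (15.4%). The change differed between genotypes for 3056 genes (21.0%), 1307 with a more positive change in DTRADQ mice (9.00%) and 1749 with a more negative one (12.0%). Without the control libraries that stood apart these were 5867 genes in DTRADQ mice, 3354 in controls and 3577 for the difference. In DTRADQ mice the libraries of the groups did not overlap for 5685 genes (39.1%). The median log2 change over all tested genes was −0.02 in DTRADQ mice and 0.01 in controls. The count in controls was 920 when only the groups compared entered the fit. The gene lists below are read against the shares given here.

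**Figure D1:**
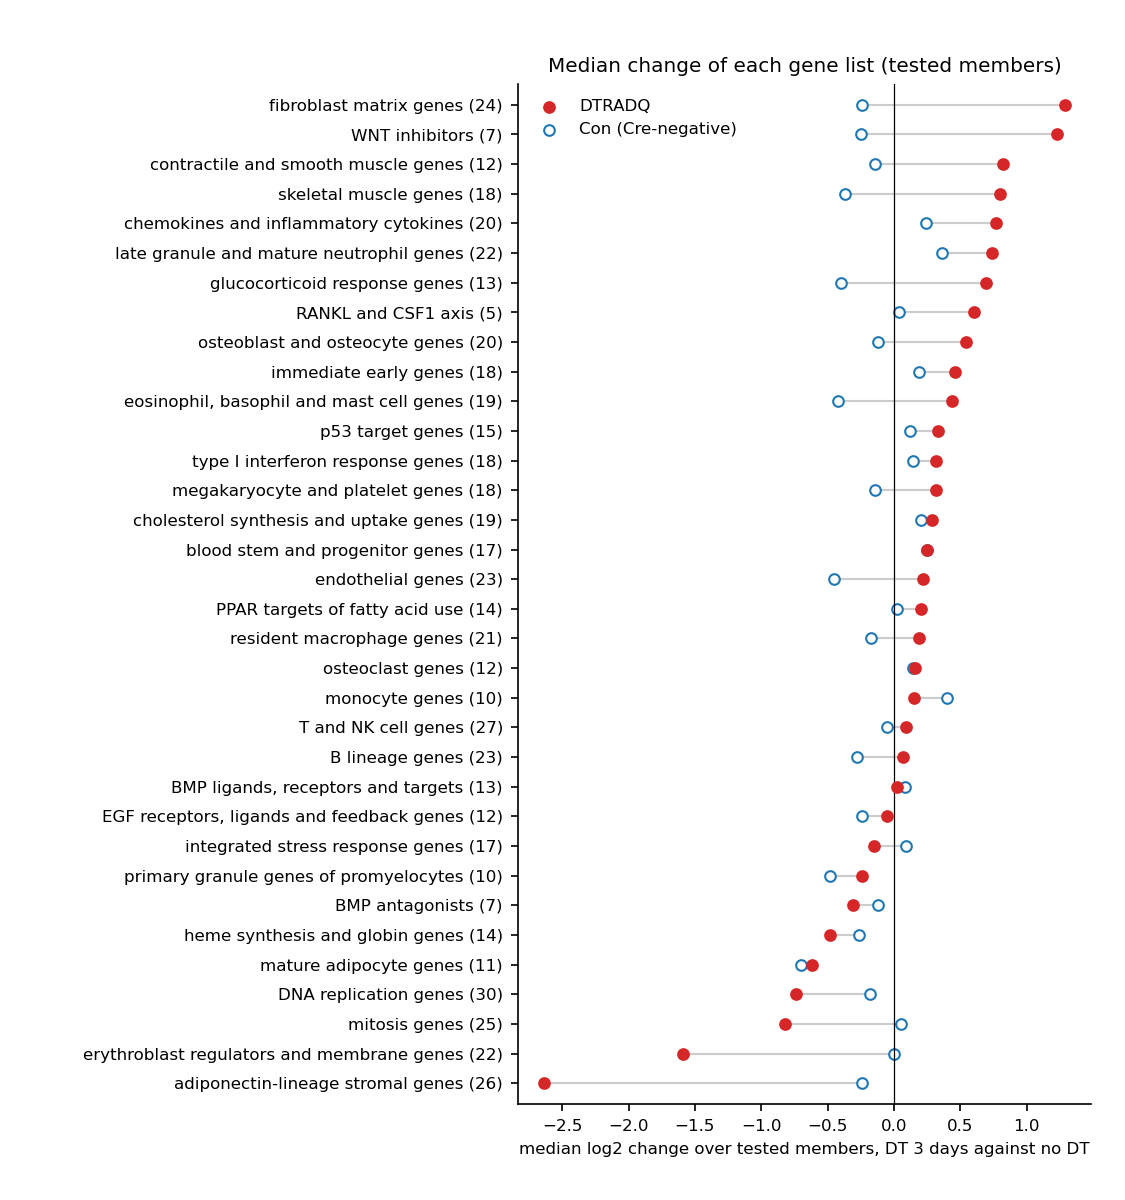
Median log2 change over the tested members of each gene list, 3 days of DT against no DT, in DTRADQ mice (filled red) and controls (open blue), for lists with at least 5 tested members, whose number is in brackets. The stromal list (−2.64 against −0.24) and the erythroblast list (−1.59 against 0.00) lie farthest to the left, and the fibroblast matrix list (1.29 against −0.24) farthest to the right.

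Stromal transcripts of the adiponectin lineage fell after 3 days of DT in DTRADQ mice and, for most members, not in controls. Of 26 listed and tested genes 20 fell and 6 did not pass, with a median log2 change of −2.64. In controls 4 fell, with a median of −0.24, and the change was more negative in DTRADQ mice for 15. Without the control libraries that stood apart 1 fell in controls, with a median of −0.10. The change was then more negative in DTRADQ mice for 17 and more positive for 1. Adipoq, which encodes adiponectin and marks the targeted lineage, was at 28.6, 33.3, 47.6 and 28.8 CPM without DT and at 0.600, 0.332, 0.264 and 0.391 CPM at 3 days. The groups were far apart in every library, for a log2 change of −6.40 (SE 0.38, adjusted p = 5.9e-14), against −1.03 in controls (adjusted p = 0.0023). The genotype-by-DT value of Adipoq was −5.37. It was −5.91 without the control libraries that stood apart, where the DTRADQ change was −6.37, so the size of the control fall rests in part on those libraries.

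Cxcl12, the chemokine that holds blood stem cells and B cell precursors in the marrow, was at 400, 395, 466 and 302 CPM without DT and at 20.3, 31.5, 28.0 and 23.3 CPM at 3 days (log2 change −3.92, SE 0.20, adjusted p = 1.4e-15). In controls it was at 309 to 422 CPM without DT and 369 to 459 CPM at 3 days (0.17, adjusted p = 0.4860). Kitl, stem cell factor, was at 48.9, 46.7, 58.1 and 41.5 CPM and then at 10.4, 8.48, 9.58 and 6.35 CPM (−2.49, SE 0.20, adjusted p = 1.6e-10). Every 3-day library was below every no-DT library for both factors. Lepr, the leptin receptor, changed by −3.88 (SE 0.25), and Igfbp5, an insulin-like growth factor binding protein, by −5.34 (SE 0.23). Il34, a ligand of the CSF1 receptor, changed by −3.36 (SE 0.41), and Il7, the cytokine of B cell precursors, by −1.18 (SE 0.39, adjusted p = 0.0226). The call for Il7 was lost when any of 6 libraries was left out, with adjusted p up to 0.0863. Il7 changed by −0.72 in controls (adjusted p = 0.1373), and its genotype-by-DT value was not called (−0.46, adjusted p = 0.5893).

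The time points between show how early the low levels were reached. Adipoq was at 0.292 to 1.07 CPM after 1 day and 0.221 to 0.979 CPM after 2 days, and Cxcl12 at 19.1 to 22.5 and 30.0 to 44.1 CPM. Kitl was at 11.5 to 22.8 CPM after 1 day, above its 3-day range of 6.35 to 10.4 CPM, and at 7.14 to 15.6 CPM after 2 days. These levels on days 1 and 2 were described and not tested.

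**Figure D2:**
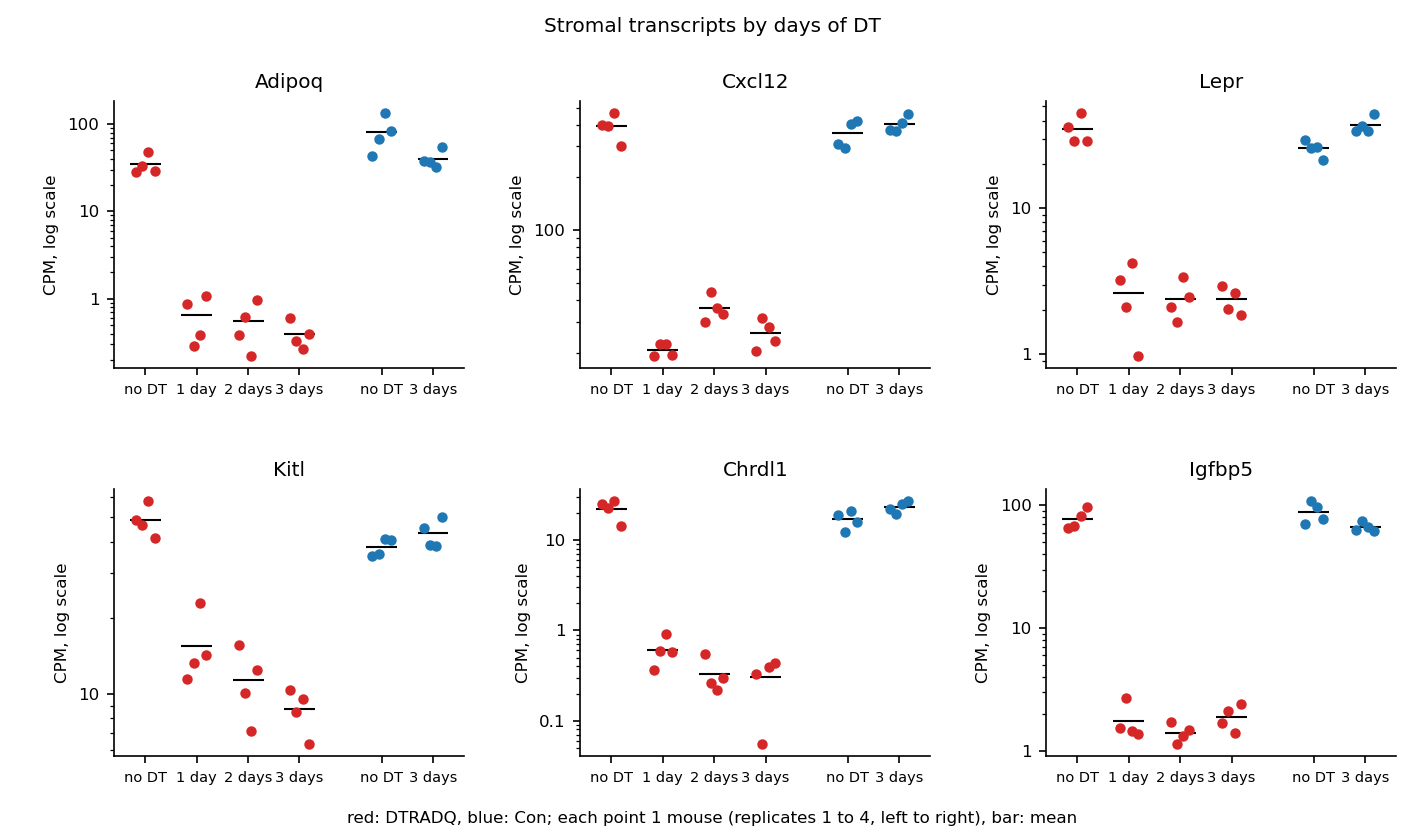
Levels of 6 stromal transcripts in CPM (log scale) by days of DT in DTRADQ mice (red) and in controls without DT and at 3 days (blue), each point 1 mouse and each bar the mean of 4. Adipoq lay at 28.6 to 47.6 CPM in DTRADQ mice without DT and at 0.264 to 0.600 CPM at 3 days, and the low levels were already present after 1 day.

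A few listed stromal genes did not pass. Ebf1 (−0.18, adjusted p = 0.6067), which B cells also express, Vcam1 (0.11, adjusted p = 0.7204), which marrow macrophages also express, Lpl, lipoprotein lipase (0.08, adjusted p = 0.7560), and Hp, haptoglobin, which neutrophils also express (0.54, adjusted p = 0.1955), were among the 6. Pdgfra, a receptor of mesenchymal cells, fell by 1.17 on the log2 scale (SE 0.26, adjusted p = 0.0010), and its level was 0.0730 to 0.368 CPM after 1 day and 1.26 to 1.83 CPM at 3 days. The Pdgfra change was not called different from that in controls (−0.85, adjusted p = 0.0965). Lpl was at 36.9 to 50.5 CPM after 1 day and 73.9 to 112 CPM at 3 days, beside 77.2 to 104 CPM without DT. For these 2 genes the day 3 level was thus above every day 1 library.

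The 5 largest falls among genes whose mean log2 CPM was 1 or more and groups that do not overlap were those of Cfd, Slc26a7, Adipoq, Gdpd2 and Chrdl1. Cfd, complement factor D or adipsin, a product of adipocytes, had 269 reads over the 4 libraries without DT and 1 read over the 4 at 3 days, a ratio of 286 with a 95% interval of 51.0 to 11351 from the exact binomial test, which covers counting error only. Slc26a7, an anion transporter, was at 7.88, 5.02, 6.70 and 3.53 CPM and then at 0, 0.166, 0 and 0.0488 CPM (−6.51, SE 0.58, adjusted p = 1.3e-09). Gdpd2, a glycerophosphodiester phosphodiesterase, changed by −6.19 (SE 0.44), with 17.3% of its exon bases shared with Gm14866. Of 18 mature adipocyte genes 11 were tested, 5 fell and 2 rose, while 3 fell and 3 rose in controls, where 2 rose and the falls were not called without the libraries that stood apart. Slc2a4, the insulin-responsive glucose transporter, was at 13.6, 13.2, 12.7 and 14.0 CPM and then at 3.65, 3.43, 3.04 and 2.25 CPM (−2.11, SE 0.31, adjusted p = 9.3e-06). It stood at 19.1 to 25.1 CPM after 1 day, so its fall followed that of Adipoq. Cd36, a fatty acid transporter that red cell precursors, macrophages and endothelium also express, fell in DTRADQ mice (−1.02, adjusted p = 0.0046) and rose in controls (1.09, adjusted p = 0.0026).

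Secreted regulators of bone formation changed in both directions. BMP antagonists bind bone morphogenetic proteins and block their signal. Of 12 listed 7 were tested, 3 fell and 1 rose (median −0.31, and −0.12 in controls). Chrdl1, chordin-like 1, was at 25.2, 22.9, 26.9 and 14.3 CPM without DT and at 0.327, 0.0554, 0.397 and 0.439 CPM at 3 days (−6.16, SE 0.31, adjusted p = 1.4e-15). Grem1, gremlin, changed by −4.94 (SE 0.40) and Bmper by −2.88 (SE 0.53), and neither passed in controls (−0.24 and −0.08). Nog, noggin, had 4 reads over the group without DT and 0 at 3 days, too few to test. Of 13 tested BMP ligands, receptors and targets 3 rose and 1 fell, near the background share. Bmp6 fell by 3.54 (SE 0.57) on the log2 scale, and the target Id1 rose by 0.72 (SE 0.18, adjusted p = 0.0025), a change that did not differ between genotypes (0.32, adjusted p = 0.4064). Without DTRADQ replicate 4 of the no-DT group only 1 of these 13 rose.

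WNT inhibitors divided. Of 7 tested members 3 fell and 3 rose, and all 6 changes differed between genotypes, with those of Dkk1 and Apcdd1 losing that call in several alternatives (adjusted p up to 0.1613 and 0.3037). Sfrp4, a secreted decoy of WNT ligands, was at 24.5, 25.5, 35.0 and 16.1 CPM and then at 0.927, 0.554, 0.661 and 1.32 CPM (−4.83, SE 0.33, adjusted p = 3.2e-12). Sfrp1 (−2.33, SE 0.35) and Wif1 (−2.29, SE 0.27) also fell. Wif1 stood at 3.96 to 7.59 CPM after 1 day and at 1.03 to 2.25 CPM at 3 days. Dkk3 was at 0.778, 0.777, 1.37 and 0.416 CPM and then at 5.45, 4.60, 4.23 and 4.15 CPM (2.46, SE 0.32, adjusted p = 1.6e-06). The lower-level genes Dkk1 (1.82, SE 0.52, adjusted p = 0.0085), from 21 to 83 reads per group, and Apcdd1 (2.26, SE 0.56, adjusted p = 0.0030), from 14 to 74 reads, rose too.

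In the RANKL and CSF1 axis, which drives osteoclast formation, 2 of 5 tested genes rose and 1 fell. Tnfrsf11b, osteoprotegerin, the decoy that neutralises RANKL, was at 0.0518, 0.0518, 0.479 and 0.0693 CPM without DT and at 8.39, 7.53, 6.21 and 11.9 CPM at 3 days. It thus went from 10 reads to 627 reads over the group (log2 change 5.75, SE 0.65, adjusted p = 1.4e-07), while controls stayed at 0 to 0.299 CPM. Csf1, the growth factor of the macrophage lineage, was at 8.45, 6.21, 8.07 and 5.20 CPM and then at 13.6, 17.7, 15.8 and 20.0 CPM (1.26, SE 0.19, adjusted p = 1.4e-05). RANKL itself, Tnfsf11, had 41 reads without DT and 36 at 3 days and was too low to test. Of 12 tested osteoclast genes 4 rose and 3 fell, while 4 rose in controls, and the change was more negative in DTRADQ mice for 2. Acp5, tartrate-resistant acid phosphatase, was at 68.8, 67.8, 101 and 84.4 CPM and then at 41.4, 40.8, 47.3 and 52.2 CPM (−0.82, SE 0.20, adjusted p = 0.0024). Its change was not called different from that in controls (−0.68, adjusted p = 0.0849). Tcirg1, a subunit of the osteoclast proton pump that other cells also use, rose in DTRADQ mice (0.84) and in controls (0.79). Ctsk, cathepsin K, was at 15.1, 13.0, 44.5 and 65.7 CPM and then at 14.4, 13.8, 7.73 and 8.94 CPM (−1.61, SE 0.40, adjusted p = 0.0025), with overlapping groups. The genotype-by-DT value of Ctsk was not called (−1.29, adjusted p = 0.1013). Car2, carbonic anhydrase 2, fell as well (−1.85, SE 0.28), and with 8069 to 12618 CPM without DT it is an enzyme that red cell precursors also make.

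Extracellular matrix and contractile transcripts rose in the same libraries in which stromal transcripts fell. Of 24 tested fibroblast matrix genes 14 rose and 3 fell (median 1.29, and −0.24 in controls with 2 higher and 3 lower), and the change was more positive in DTRADQ mice for 13. Of 12 tested contractile genes 8 rose and 4 did not pass (median 0.82, and −0.14 in controls), and the change was more positive for 8. Tagln, transgelin, an actin-binding protein of smooth muscle and myofibroblasts, was at 0.881, 1.09, 1.30 and 1.25 CPM without DT and at 53.9, 54.0, 44.0 and 80.6 CPM at 3 days. It was the largest rise among genes whose mean log2 CPM was 1 or more (5.69, SE 0.31, adjusted p = 9.4e-15), and controls stayed at 0.486 to 1.44 CPM. Acta2, smooth muscle actin, was at 16.8, 19.9, 24.5 and 9.22 CPM and then at 118, 125, 108 and 135 CPM (2.78, SE 0.36, adjusted p = 1.4e-06).

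The next largest rises above that level were those of the chemokine Ccl7 and 3 members of the CCN family of matricellular proteins. Ccn1 was at 0.570, 1.04, 1.44 and 1.94 CPM and then at 14.3, 14.9, 10.4 and 19.6 CPM (3.60, SE 0.36, adjusted p = 1.3e-08). Ccn2, connective tissue growth factor, changed by 4.02 (SE 0.39) in DTRADQ mice and by −1.39 in controls (adjusted p = 0.0111), with 23.2% of its exon bases shared with Gm15270. The genotype-by-DT value of Ccn2 was 5.41. It was 4.29 without the control libraries that stood apart, where the DTRADQ change was 4.05, so the size of the control fall rests on those libraries. Ccn4 changed by 3.55 (SE 0.42). Timp1, an inhibitor of matrix metalloproteinases, was at 1.19, 0.725, 1.78 and 4.02 CPM and then at 21.2, 21.9, 14.7 and 28.8 CPM (3.53, SE 0.37). Postn, periostin, was at 3.16, 1.81, 3.83 and 3.05 CPM and then at 32.5, 30.6, 24.0 and 33.2 CPM (3.35, SE 0.27, adjusted p = 1.6e-10). For all of these genes the lowest 3-day library was above the highest library without DT. Ogn, a small proteoglycan of bone and stroma, went the other way (−1.77, SE 0.22).

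These genes did not share a time course. Ccn1 was already at 9.27 to 13.4 CPM after 1 day, and Tagln at 5.53 to 8.83 CPM. Postn was at 2.62 to 4.26 CPM after 1 day, beside 1.81 to 3.83 CPM without DT, and at 6.54 to 15.0 CPM after 2 days. Thbs2, thrombospondin 2, was at 0.914 to 1.36 CPM after 1 day, 1.32 to 3.97 CPM after 2 days and 11.0 to 16.4 CPM at 3 days, beside 1.40 to 2.28 CPM without DT (2.77, SE 0.26, adjusted p = 3.4e-09). Its rise thus lay between day 2 and day 3, where the lane label also changes.

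**Figure D3:**
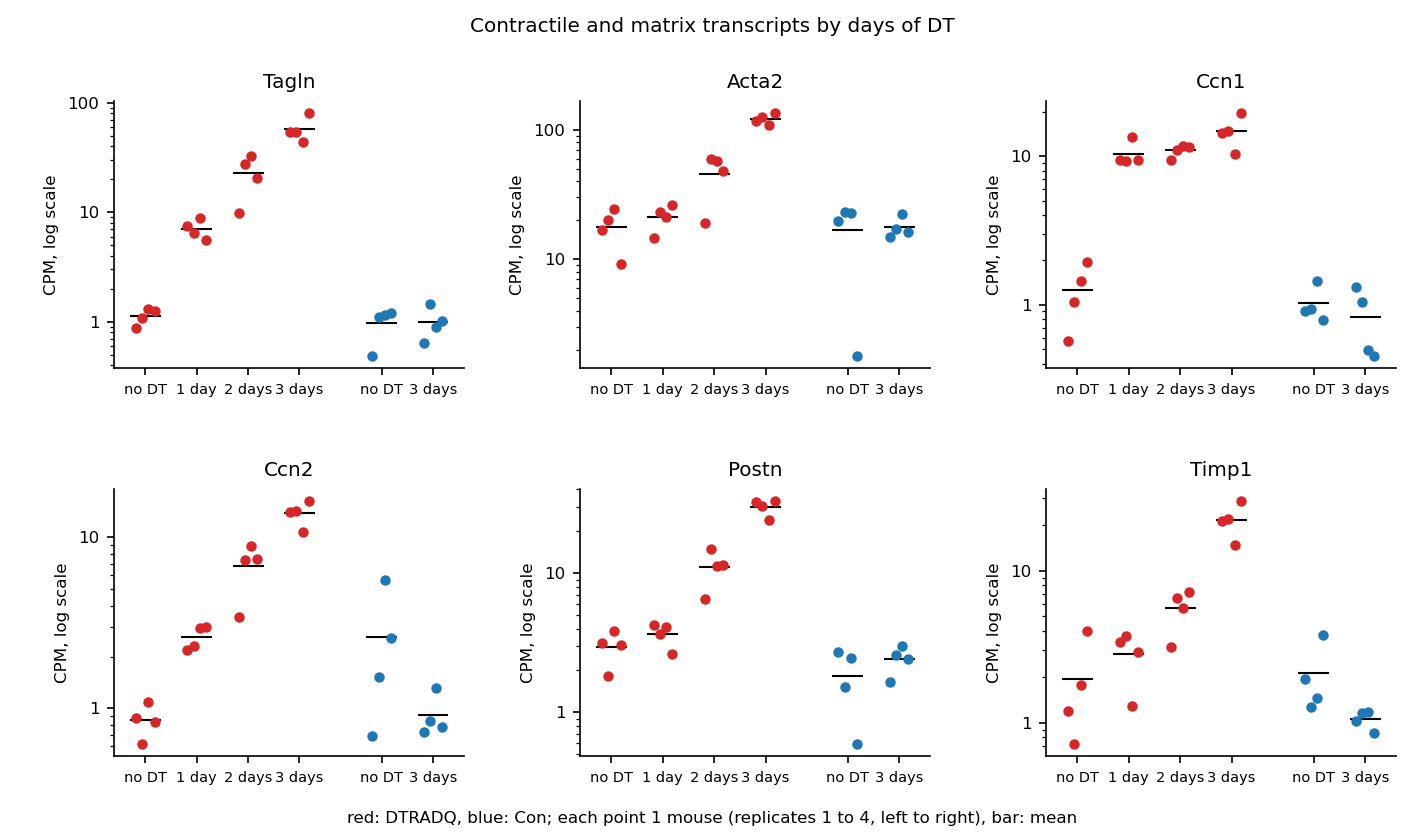
Levels of 6 contractile and matrix transcripts in CPM (log scale) by days of DT in DTRADQ mice (red) and in controls without DT and at 3 days (blue), each point 1 mouse and each bar the mean of 4. Tagln went from 0.881 to 1.30 CPM without DT to 44.0 to 80.6 CPM at 3 days, Ccn1 was high from day 1, and Postn rose after it.

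Bone-forming genes gave no single direction. Of 20 tested osteoblast and osteocyte genes 5 rose and 4 fell (median 0.54), or 8 rose without replicate 4 of the no-DT group, and the list has members made by fibroblasts, such as Postn and Cthrc1, a secreted collagen-associated protein that went from 8 reads to 201 reads (4.42, SE 0.60). Phex, a protease of osteocytes, fell by 2.82 (SE 0.59) on the log2 scale. Runx2 (−0.16, adjusted p = 0.4623) and Sp7 (−0.53, adjusted p = 0.4667), transcription factors of osteoblasts, and Bglap, osteocalcin (−1.21, adjusted p = 0.0796), whose reads can be split with Bglap2, were not called. Bglap was called lower without no-DT replicate 1, 2 or 3 or 3-day replicate 4 (−1.45 to −1.85, adjusted p 0.0177 to 0.0469). Spp1, osteopontin, rose by 0.83 (SE 0.27, adjusted p = 0.0200) with overlapping groups, a call lost without replicate 1 or 2 of the no-DT group.

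Col1a1, type I collagen, was at 28.6, 35.7, 43.6 and 219 CPM without DT and at 182, 171, 144 and 246 CPM at 3 days. Replicate 4 without DT lay among the 3-day libraries, and the change did not pass (1.19, SE 0.47, adjusted p = 0.0551). Without that library it passed (2.37, adjusted p = 1.1e-04). The same library had the highest Bglap of its group, 21.3 CPM against 2.54 to 3.52 CPM, and the highest sum over the 22 skeletal muscle genes, 441 CPM against 66.5 to 160 CPM. At 3 days that muscle sum was 169, 818, 168 and 355 CPM, and in controls 87.5 to 222 CPM without DT and 70.9 to 103 CPM at 3 days. Of 18 tested muscle genes 1 rose, Atp2a1 (0.89, adjusted p = 0.0483, 21.9% of its exon bases shared with Rabep2). That call was lost without no-DT replicate 1, 2 or 3 or 3-day replicate 2 or 4 (adjusted p up to 0.1851). Without replicate 4 of the no-DT group 13 rose with a median of 2.35. The sum over the 15 cartilage genes was 2.74 to 6.65 CPM without DT and 5.02 to 12.9 CPM at 3 days, led by Col2a1, type II collagen, at 0.207, 0.362, 1.03 and 1.52 CPM and then 4.31, 3.16, 1.85 and 4.44 CPM (2.20, SE 0.50, adjusted p = 0.0014). The muscle and cartilage sums of the DTRADQ groups overlapped only through replicate 4 of the no-DT group. With that library included 17 of the 18 muscle genes were not called, and only 3 cartilage genes were tested. Muscle and cartilage RNA is of tissues around the marrow, and its part in the changes of bone and matrix genes was not tested. The matrix list also gave 14 higher and 3 lower genes without replicate 4 of the no-DT group. That library had the highest muscle sum of its group, so leaving it out does not address muscle RNA in the 3-day libraries.

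**Figure D4:**
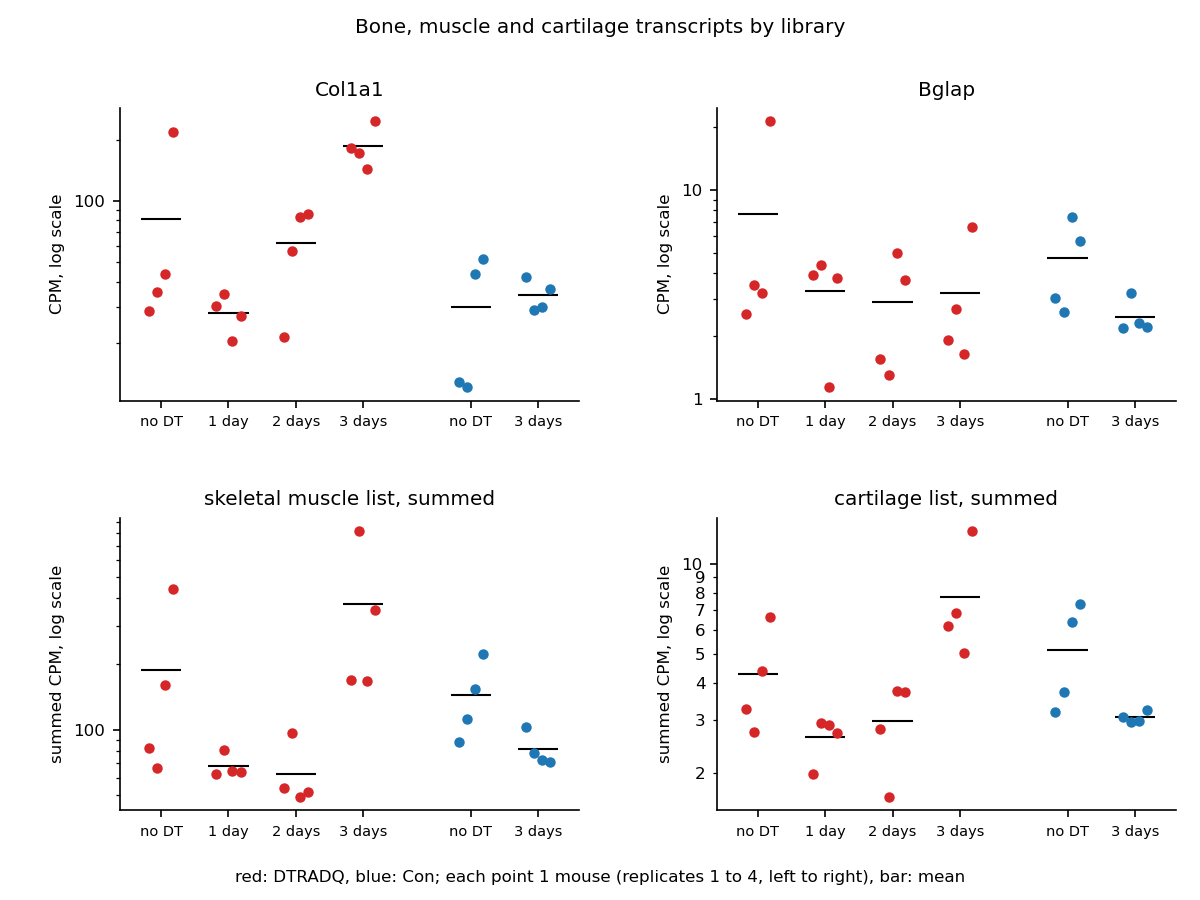
Col1a1 and Bglap in CPM and the summed CPM of the skeletal muscle and cartilage lists (log scales) by days of DT in DTRADQ mice (red) and in controls without DT and at 3 days (blue), each point 1 mouse and each bar the mean of 4. Replicate 4 of the DTRADQ group without DT is the highest of its group in all panels, with 219 CPM of Col1a1.

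Vessel and inflammatory transcripts were partly higher. Of 23 tested endothelial genes 7 rose and 2 fell (median 0.22, and −0.45 in controls, where 6 fell), and the change was more positive in DTRADQ mice for 10. Without the control libraries that stood apart 11 rose and 2 fell in DTRADQ mice. In controls 2 then fell (median −0.23), and the change was more positive in DTRADQ mice for 7. Emcn, endomucin, was at 7.21, 6.47, 6.29 and 9.56 CPM and then at 23.0, 22.2, 16.9 and 30.7 CPM (1.66, SE 0.25, adjusted p = 9.4e-06), and Robo4, an endothelial guidance receptor, changed by 1.87 (SE 0.25). Of 20 tested chemokines and cytokines 9 rose and 1 fell (median 0.77), against 2 higher and 2 lower in controls (median 0.24). The change was more positive in DTRADQ mice for 7 of the 20. Ccl7, which recruits monocytes, was at 0.570, 0.259, 0.410 and 0.416 CPM and then at 10.6, 7.37, 7.87 and 13.9 CPM (4.56, SE 0.44, adjusted p = 6.1e-09). Its relative Ccl2 was at 64.6 to 157 CPM after 1 day and at 12.1 to 32.4 CPM at 3 days, beside 1.55 to 5.47 CPM without DT (2.71, SE 0.49). Of 18 tested immediate early genes 5 rose and 2 fell, and 5 fell and 4 rose in controls. Without replicate 4 of the no-DT group 3 of them rose and 1 fell, and without the control libraries that stood apart 1 rose in controls and the falls there were not called. Zfp36, which destabilises cytokine messages, rose in DTRADQ mice (1.06) and in controls (0.81). Of 18 interferon response genes 4 rose and 1 fell, while 1 rose without replicate 4 of the no-DT group and 7 without the control libraries that stood apart.

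Red cell precursor transcripts fell in DTRADQ mice, while heme synthesis and globin genes changed in both directions. Erythroblasts take up iron through the transferrin receptor, make heme through a chain of enzymes from ALAS2 to ferrochelatase, and lose nucleus and membrane receptors as they mature. Of 22 tested erythroblast regulators and membrane genes 20 fell and 2 did not pass, with a median of −1.59, against 6 higher and 1 lower in controls and a median of 0.00. The change was more negative in DTRADQ mice for 17 of them, or 20 without the control libraries that stood apart. Tfrc, the transferrin receptor, was at 361, 262, 366 and 399 CPM without DT and at 121, 90.0, 109 and 80.4 CPM at 3 days (−1.79, SE 0.26, adjusted p = 7.5e-06), against a rise of 0.71 in controls (adjusted p = 0.0330). Rhd, a subunit of the Rhesus complex of the red cell membrane, was at 631, 665, 836 and 903 CPM and then at 213, 180, 235 and 124 CPM (−2.01, SE 0.28, adjusted p = 4.2e-06). Kel, a blood group protease (−1.95, SE 0.24), and Ermap, an erythroid membrane protein (−2.00, SE 0.24), fell too. The transcription factors Klf1 (−1.95, SE 0.38), Tal1 (−1.86, SE 0.27) and Gata1 (−0.88, SE 0.15) fell by unequal amounts. Tal1 also fell in controls (−0.77, adjusted p = 0.0251), and the genotype-by-DT value of Klf1 was not called (−1.34, adjusted p = 0.0650).

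The heme synthesis and globin genes divided into 7 that fell and 4 that rose among 14 tested. Cpox, coproporphyrinogen oxidase, was at 154, 129, 202 and 258 CPM and then at 27.3, 20.1, 27.5 and 19.0 CPM (−2.98, SE 0.34, adjusted p = 1.4e-07), and Uros, uroporphyrinogen synthase, changed by −1.87 (SE 0.25). Alas2, the first and rate-limiting enzyme in red cells, went up, from 3967, 3083, 3881 and 3663 CPM to 10257, 6675, 9685 and 8334 CPM (1.26, SE 0.23, adjusted p = 1.4e-04, with 15.5% of its exon bases shared with Apex2 and Mir3620). Fech, ferrochelatase, which inserts the iron, rose by 1.01 (SE 0.29, adjusted p = 0.0088), and this change was not called different from that in controls (0.64, adjusted p = 0.2835). The alpha globin copies Hba-a1 and Hba-a2, between which reads can be split, rose by 1.21 (SE 0.32) and 1.28 (SE 0.33). Their levels in controls without DT ran from 11356 to 60335 CPM for Hba-a1, with the highest in replicates 3 and 4, and the genotype-by-DT value of Hba-a1 was 3.00, or 1.87 (adjusted p = 5.4e-05) without those 2 libraries. Without them none of the 4 falls among heme and globin genes in controls passed, and the DTRADQ counts were 5 higher and 7 lower. The beta globin Hbb-bs was at 34339 to 47094 CPM without DT and 58264 to 89223 CPM at 3 days (0.80, adjusted p = 0.0870), and it passed when the control libraries that stood apart were left out (0.83, adjusted p = 0.0023).

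The days between show when these levels moved. Rhd was at 945 to 1364 CPM after 1 day, above its no-DT range, at 293 to 961 CPM after 2 days and at 124 to 235 CPM at 3 days. Tfrc was at 315 to 408 CPM after 1 day and 123 to 427 CPM after 2 days. Alas2 was already at 5715 to 10256 CPM after 1 day. Alas2 had thus left its no-DT range before Rhd and Tfrc fell below theirs in all 4 libraries of a day.

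Genes of cell division fell with the erythroblast genes. Of 25 mitosis genes 20 fell and 5 did not pass (median −0.82), against 9 higher and 3 lower in controls (median 0.05, with 3 higher and 2 lower without the control libraries that stood apart), and the change was more negative in DTRADQ mice for 17. Of 30 DNA replication genes 25 fell and 5 did not pass (median −0.74), against 5 higher and 8 lower in controls (median −0.18), with 13 more negative in DTRADQ mice. Mki67, the proliferation antigen Ki-67, was at 633, 564, 700 and 818 CPM and then at 286, 268, 280 and 230 CPM (−1.35, SE 0.18, adjusted p = 2.1e-06). Kif11, the motor that separates spindle poles, was at 152, 134, 145 and 151 CPM and then at 94.0, 83.3, 83.5 and 68.9 CPM (−0.82, SE 0.13), while it rose in controls (0.54, adjusted p = 0.0017). Ccne1, cyclin E1, which starts replication, changed by −1.81 (SE 0.21), and Cdc6, which loads the replicative helicase, by −1.12 (SE 0.23). Pola1, the catalytic subunit of DNA polymerase alpha, fell in DTRADQ mice (−0.90, SE 0.19) and in controls (−0.59, adjusted p = 0.0190).

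**Figure D5:**
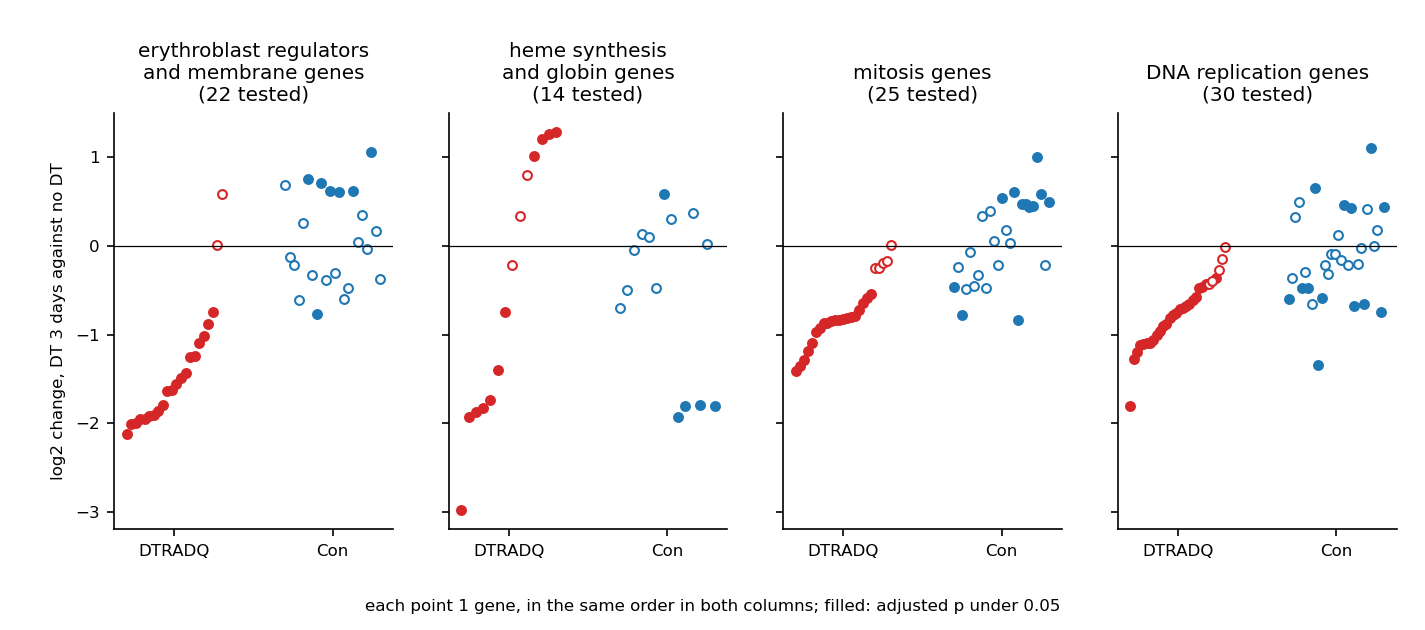
Log2 change of each tested member of 4 gene lists, 3 days of DT against no DT, in DTRADQ mice (red) and controls (blue), genes in the same order in both columns and filled where adjusted p was under 0.05. In DTRADQ mice the erythroblast, mitosis and replication genes lie mostly below 0, and the heme and globin genes run from −2.98 to 1.28.

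The stretches upstream of 5 of these genes are shown because most genes of their lists fell and each window holds a short motif known from genes of its kind. Motifs were searched on both strands in the 250 bases before the first listed gene start (RefSeq promoters, GRCm38.p6), and matches are in capitals, read on the gene's strand. The cell cycle homology region TTTGAA, bound by repressor complexes outside mitosis, was found in 7 of 20 mitosis promoters in the table and in 11.1% of the 10585 promoters of tested genes. The E2F forms TTTCCCGC or TTTGGCGC were found in 5 of 24 replication promoters and in 2.48% of those of tested genes. The GATA motif AGATAA was found in 6 of 16 promoters of tested erythroblast genes and in 6.16% of those of tested genes. The windows are chr7:135716380-135716629 on the minus strand for Mki67, chr19:37376132-37376381 on the plus strand for Kif11, chrX:93632156-93632405 on the minus strand for Pola1, chr4:134864286-134864535 on the plus strand for Rhd and chr4:115056176-115056425 on the plus strand for Tal1. A match describes letters and shows no binding.
Mki67: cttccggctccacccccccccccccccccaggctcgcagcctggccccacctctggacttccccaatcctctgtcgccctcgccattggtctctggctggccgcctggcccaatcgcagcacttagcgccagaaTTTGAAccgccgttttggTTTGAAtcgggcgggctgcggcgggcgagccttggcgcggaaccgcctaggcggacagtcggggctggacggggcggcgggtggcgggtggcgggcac
Kif11: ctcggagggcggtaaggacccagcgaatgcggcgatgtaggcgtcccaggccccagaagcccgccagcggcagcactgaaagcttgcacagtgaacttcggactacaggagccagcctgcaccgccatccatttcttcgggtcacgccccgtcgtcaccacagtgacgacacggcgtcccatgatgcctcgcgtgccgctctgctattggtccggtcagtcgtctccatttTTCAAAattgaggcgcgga
Pola1: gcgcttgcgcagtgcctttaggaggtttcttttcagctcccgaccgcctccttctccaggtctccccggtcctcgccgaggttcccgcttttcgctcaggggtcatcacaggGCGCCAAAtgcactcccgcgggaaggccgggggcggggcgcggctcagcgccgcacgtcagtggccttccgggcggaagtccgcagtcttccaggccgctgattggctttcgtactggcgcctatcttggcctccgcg
Rhd: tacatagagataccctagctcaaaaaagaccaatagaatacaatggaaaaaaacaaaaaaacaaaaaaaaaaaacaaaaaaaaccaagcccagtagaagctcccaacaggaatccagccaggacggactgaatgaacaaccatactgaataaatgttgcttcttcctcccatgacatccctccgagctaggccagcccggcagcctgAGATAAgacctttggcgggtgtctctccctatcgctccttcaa
Tal1: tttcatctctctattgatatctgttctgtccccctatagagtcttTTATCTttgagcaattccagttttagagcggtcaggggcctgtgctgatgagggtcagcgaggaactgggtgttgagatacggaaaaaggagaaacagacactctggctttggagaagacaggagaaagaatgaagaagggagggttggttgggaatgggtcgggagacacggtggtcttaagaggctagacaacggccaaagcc

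Among white blood cell genes the late neutrophil genes gave the most calls. Of 22 late granule and mature neutrophil genes 13 rose and 9 did not pass (median 0.74), against 6 higher and 6 lower in controls, and the change was more positive in DTRADQ mice for 6. The count was 8 without replicate 4 of the no-DT group and 17 without the control libraries that stood apart, where 3 genes were lower in controls. Padi4, which citrullinates histones in neutrophils, was at 102, 91.4, 67.2 and 59.8 CPM and then at 153, 228, 222 and 167 CPM (1.26, SE 0.22, adjusted p = 7.5e-05), and it also rose in controls (0.65, adjusted p = 0.0242). Lcn2, lipocalin 2, rose in DTRADQ mice (0.66, adjusted p = 0.0123) and fell in controls (−0.52, adjusted p = 0.0456). Of 10 primary granule genes 2 fell and 1 rose, near the background shares, among them Ctsg, cathepsin G (−0.54, adjusted p = 0.0342), and Cebpe (0.54, adjusted p = 0.0242). In controls 4 of the 10 fell, among them Ctsg (−0.60, adjusted p = 0.0169). The genotype-by-DT value was not called for Ctsg (0.07, adjusted p = 0.8949) or Cebpe (0.66, adjusted p = 0.0671). Cebpe lost its call without no-DT replicate 1, 3 or 4 or 3-day replicate 2, and Ctsg without no-DT replicate 3 or 4 or 3-day replicate 2, 3 or 4.

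In the B lineage 3 of 23 genes fell, near the background share, and 2 rose, calls that were lost without replicate 4 of the no-DT group. The fallen genes were Dntt, terminal transferase, at 31.7, 42.3, 49.7 and 43.5 CPM and then at 14.0, 13.4, 11.7 and 15.1 CPM (−1.62, SE 0.28, adjusted p = 5.2e-05), and the surrogate light chain genes Vpreb1 (−1.71, SE 0.30) and Igll1 (−1.17). Vpreb1 and Igll1 also fell in controls (−1.21 and −1.31), and Dntt did not pass there (0.07, adjusted p = 0.8660). Of 27 tested T and NK cell genes 7 rose and 1 fell, among them Klrb1c, the NK1.1 antigen (1.17, SE 0.19), and Il2rb (1.07, SE 0.21), which also rose in controls (0.92, adjusted p = 0.0017). In controls 1 T and NK cell gene rose and 3 fell, and the change was more positive in DTRADQ mice for 5. Of 10 monocyte genes 2 fell, near the background share, while 4 rose and 2 fell in controls. Cx3cr1, the fractalkine receptor, was at 41.6, 41.8, 33.5 and 29.0 CPM and then at 16.7, 24.6, 17.5 and 20.1 CPM (−0.89, SE 0.24), and it rose in controls (0.93, adjusted p = 0.0034), where replicates 3 and 4 without DT were the lowest at 13.9 and 14.0 CPM.

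Of 21 resident macrophage genes 3 rose, near the background share, and 1 fell, while 3 rose and 4 fell in controls. Vsig4, a complement receptor of tissue macrophages, was at 1.56, 2.33, 1.23 and 0.485 CPM and then at 10.4, 7.15, 8.06 and 10.6 CPM (2.65, SE 0.42, adjusted p = 2.2e-05), with a level of 0.876 to 2.13 CPM after 1 day. Of 18 megakaryocyte genes 5 rose, led by Itga2b, integrin alpha IIb (1.14, SE 0.19), which also rose in controls (0.69). The count was 3 without replicate 4 of the no-DT group and 9 without the control libraries that stood apart. In controls 3 megakaryocyte genes rose and 5 fell, and the change was more positive in DTRADQ mice for 5. Of 19 eosinophil, basophil and mast cell genes 3 rose, near the background share, or 6 without the control libraries that stood apart. In controls 1 of the 19 rose and 7 fell, and the change was more positive in DTRADQ mice for 8. Of 17 genes of stem cells and progenitors 2 fell and 3 rose, near the background shares, while 1 fell and 3 rose in controls. The genes that fell in DTRADQ mice were Gfi1b, a repressor of the red cell and platelet lineages (−1.30, SE 0.24), and Myb (−0.60, SE 0.13), with 12.0% of its exon bases shared with Gm26577.

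Of 14 tested PPAR targets 5 rose and 1 fell, among them Plin2, which coats lipid droplets, at 163, 150, 143 and 169 CPM and then at 348, 354, 363 and 355 CPM (1.18, SE 0.25, adjusted p = 5.2e-04), and Cpt1a, of mitochondrial fatty acid import (0.84, SE 0.15). In controls 2 PPAR targets rose and 1 fell, and the change was more positive in DTRADQ mice for 2. Of 19 cholesterol genes 5 rose, among them Mvd (1.03, SE 0.17) and the regulator Srebf2 (0.62, SE 0.16). In controls 4 cholesterol genes rose and 1 fell, and the change was more positive in DTRADQ mice for 3 and more negative for 1. Of 15 p53 targets 6 rose in DTRADQ mice and 5 rose in controls, or 4 in DTRADQ mice without replicate 4 of the no-DT group, led by Plk2 (1.46, SE 0.26, and 0.79 in controls). Of 17 integrated stress response genes 4 rose and 4 fell, with Trib3 higher (2.14, SE 0.42) and Ppp1r15a lower (−1.29, SE 0.19). Of 13 glucocorticoid response genes 6 fell and 3 rose although the list median was 0.69. Cdkn1c (−2.08 and −1.34 in controls) and the metallothionein Mt2 (−2.66 and −1.95) fell in both genotypes. The highest Mt2 levels were those of controls without DT in replicates 3 and 4, at 52.3 and 52.2 CPM. Without replicate 4 of the no-DT group 3 of the 13 fell and 1 rose. Of 12 EGF receptor, ligand and feedback genes 3 fell, among them Erbb2 (−1.64, SE 0.43) and Lrig1 (−1.50, SE 0.39), and 2 rose. In controls 4 of the 12 fell, among them Erbb2 (−1.19, adjusted p = 0.0222), and 2 rose. The genotype-by-DT value was not called for Erbb2 (−0.45, adjusted p = 0.6271) or Lrig1 (−0.96, adjusted p = 0.2058). Without the control libraries that stood apart 2 of the 12 fell and 2 rose in controls. Erbb2 was then at −1.60 in DTRADQ mice and at −1.41 for genotype by DT (adjusted p = 0.0551). Hbegf, the mouse counterpart of the toxin receptor gene, was at 1.59 to 3.21 CPM without DT and 1.65 to 2.11 CPM at 3 days (−0.22, adjusted p = 0.6686).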

How the data were processed

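RNA from whole femur marrow was sequenced in 32 libraries, 4 in each of 8 groups (8.97 to 22.93 M counts per library). Per the submitters' processing notes, reads were handled with bcl2fastq, STAR 2.0.4b, Subread and featureCounts 1.45 on GRCm38. Libraries were made with the SMARTer kit, per the labels' protocols. Not given in the sources used here are the annotation release, strand setting and treatment of multi-mapping reads. The authors deposited whole-number counts per gene, and beside them CPM and RPKM values, which recomputation from the deposited counts matched within 4.4e-10 CPM and a relative 3.9e-14 for RPKM.

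The counts were tested with edgeR 4.0.16 (R 4.3.3): genes kept by filterByExpr at a minimum count of 10, TMM scaling, a quasi-likelihood fit with 1 mean for each of the 8 groups, and Benjamini-Hochberg adjustment over 14527 genes at 0.05. Log2 changes carry a standard error (SE) from the F statistic. The fit was tested on simulated counts. Alternatives were DESeq2 1.42.0, its size factors in edgeR, no filter, only the groups compared, limma 3.58.1 voom with library weights, a block for the replicate number, and each library left out in turn. P-values measure the spread between mice, and no pair of replicates agreed within sampling noise.

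The members and the 35 gene lists were chosen with earlier results of these data known. Of 642 list genes 640 were matched by symbol. Genes were named by a rule: the 5 largest rises and 5 largest falls past the threshold among genes with a symbol, a mean log2 CPM of at least 1 and groups that do not overlap, the 2 of each list with the smallest p, and 19 fixed genes, 89 in all. The other genes named were chosen after their values were seen. The result for 1 gene is not reported here.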

Additional observations from a re-analysis of the deposited data

Results flagged for a closer look

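For the genes below the change over 3 days of DT differed between DTRADQ mice and controls by the genotype-by-DT term of the same model, with adjusted p under 0.05, and the value in brackets is the DTRADQ change minus the control change on the log2 scale. A minus sign means a more negative change in DTRADQ mice. Among stromal, adipocyte and secreted regulator genes the values were Adipoq (−5.37), Cxcl12 (−4.10), Kitl (−2.67), Lepr (−4.40), Igfbp5 (−4.92), Il34 (−3.12), Cfd (−6.32), Slc26a7 (−7.08), Gdpd2 (−6.63), Slc2a4 (−2.26) and Cd36 (−2.11). For BMP and WNT regulators they were Chrdl1 (−6.62), Grem1 (−4.70), Bmper (−2.80), Bmp6 (−2.96), Sfrp4 (−5.12), Sfrp1 (−1.98) and Wif1 (−2.64), with the opposite sign for Dkk1 (2.53), Dkk3 (2.29) and Apcdd1 (2.51). Matrix and contractile genes gave Tagln (5.55), Acta2 (2.76), Ccn1 (3.88), Ccn2 (5.41), Ccn4 (3.42), Timp1 (4.42), Postn (3.04) and Thbs2 (2.97), and Ogn (−1.65) went the other way. Bone, cartilage, muscle and osteoclast genes gave Cthrc1 (6.27), Phex (−3.47), Col2a1 (2.94), Atp2a1 (1.59), Tnfrsf11b (5.17), Csf1 (1.22) and Car2 (−1.69). Vessel and chemokine genes gave Emcn (2.21), Robo4 (2.13), Ccl7 (3.93) and Ccl2 (2.47).

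Red cell genes gave Tfrc (−2.51), Rhd (−1.88), Kel (−2.21), Ermap (−1.79), Tal1 (−1.09), Gata1 (−0.84), Cpox (−2.28) and Uros (−1.82), while Alas2 (1.24), Hba-a1 (3.00), Hba-a2 (3.09) and Hbb-bs (2.61) had the opposite sign. The globin values include falls in controls (Hba-a1 −1.79, Hba-a2 −1.81, Hbb-bs −1.81), and Hbb-bs was not called in DTRADQ mice (0.80, adjusted p = 0.0870). In controls without DT the heme and globin sum was 80816, 124931, 279937 and 472901 CPM. Division genes gave Mki67 (−1.11), Kif11 (−1.36), Ccne1 (−1.21) and Cdc6 (−1.61). Other blood cell genes gave Dntt (−1.69), Cx3cr1 (−1.82), Gfi1b (−1.22), Myb (−0.98), Klrb1c (0.79), Lcn2 (1.18) and Vsig4 (3.31), and metabolic and stress genes Mvd (1.10), Srebf2 (0.78), Plin2 (1.21) and Ppp1r15a (−1.64). Genes outside the lists gave Serpinh1 (1.49), Fkbp10 (1.93), Kdelr3 (1.52), Angpt2 (2.51), Kng1 (−4.12), Kng2 (−5.27) and Serping1 (−4.10). Some of these genotype-by-DT calls were lost in alternatives. Col2a1 was at 1.03 (adjusted p = 0.6246) without the control libraries that stood apart, where Apcdd1 (0.3037), Srebf2 (0.1166), Kdelr3 (0.0889) and Fkbp10 (0.0554) did not pass either, with adjusted p in brackets. With only the groups compared Col2a1 (0.0850), Tal1 (0.1126), Klrb1c (0.0878), Plin2 (0.0750) and Srebf2 (0.0545) were lost. Over all alternatives the call was lost in 16 for Apcdd1, in 9 each for Tnfrsf11b (adjusted p up to 0.4444), Klrb1c (0.0973) and Tal1 (0.1126), in 8 for Dkk1 (0.1613), in 4 for Atp2a1 (0.0700) and in 1 for Ccl2 (0.0593). Without replicate 2 of the control group without DT Tnfrsf11b was at 3.91, and Plin2 was at 0.89 (adjusted p = 0.0505). Without its replicate 3 Col2a1 was at 1.52 (adjusted p = 0.3733) and Kdelr3 at 1.10 (adjusted p = 0.1320).

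In some groups 1 library lay apart from the other 3 by Dixon's test at the 95% level, which chance alone gives in about 1 of 20 groups. In the DTRADQ group without DT the library set apart was replicate 3 for Lrig1 (2.394 CPM) and Tnfrsf11b (0.4788 CPM), and replicate 4 for Cdkn1c (3.257 CPM), Col1a1 (218.7 CPM), Bglap (21.35 CPM) and Tnfsf11 (1.109 CPM). In the DTRADQ group at 3 days the library set apart was replicate 1 for Itga2b (127.6 CPM) and Srebf2 (14.55 CPM), and replicate 2 for Igll1 (21.77 CPM). In the control group without DT the library set apart was replicate 1 for Tagln (0.4861 CPM), Kel (186.6 CPM) and Plk2 (2.639 CPM), replicate 3 for Ccn4 (1.307 CPM) and Fkbp10 (3.194 CPM), and replicate 4 for Serping1 (42.89 CPM). In the control group at 3 days the library set apart was replicate 2 for Bglap (3.197 CPM), replicate 3 for Il2rb (19.82 CPM), Cdkn1c (2.122 CPM) and Ccl2 (8.579 CPM), and replicate 4 for Slc26a7 (11.37 CPM), Il34 (10.02 CPM), Ermap (604.5 CPM) and Dntt (51.58 CPM). Replicate 4 of the DTRADQ group without DT is also the library with the most bone and muscle RNA of its group. The part of that RNA in these values was not tested.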

How the results depend on the processing

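Counts of genes past the threshold depended on how many groups shared the estimate of spread. With only the groups compared in the fit, 2810 genes were higher in DTRADQ mice, 920 passed in controls (349 higher, 571 lower) and 1664 for genotype by DT (684 and 980). With voom and library weights 6531 genes passed in DTRADQ mice (2941 higher) and 4599 for genotype by DT (2702 more negative). Without both control libraries that stood apart, a choice made after seeing the data, 2814 genes were higher in DTRADQ mice. Leaving out 1 library at a time gave 3068 to 4083 genes in DTRADQ mice (1241 to 1939 higher, 1793 to 2346 lower), 3124 to 6020 in controls (1556 to 3101 and 1568 to 2919) and 2546 to 4563 for genotype by DT (1069 to 1907 and 1434 to 2656, the last without control replicate 1 of the no-DT group). The cause of these moves was not tested.

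Replicate numbers did not pair the DTRADQ samples, with same-number correlations of −0.071, −0.106, 0.003 and −0.033. With the number as a block 4514 genes passed in DTRADQ mice (1977 higher, 2537 lower), 4654 in controls and 3287 for genotype by DT. No called change of a named gene reversed, while some calls were lost, as given with the genes. The genotype-by-DT values of Col1a1 (0.95) and Runx2 (−0.20), which had not passed, were −0.25 and 0.07 without the control libraries that stood apart. Depth limits genes with few reads, such as Tnfsf11 and Nog, which were too low to test.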

Other observations

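The genes below lie outside the lists and were picked after their values were seen, so they stand for no group. Serpinh1, the collagen chaperone HSP47, was at 23.5, 24.0, 27.5 and 22.1 CPM without DT and at 90.6, 109, 93.5 and 120 CPM at 3 days (log2 change 2.09), against 0.60 in controls (adjusted p = 0.0479). Fkbp10, a prolyl isomerase that acts on collagen, changed by 2.12, and Kdelr3, a receptor that returns proteins to the endoplasmic reticulum, by 2.19. Angpt2, a vessel-destabilising ligand of the TIE2 receptor, was at 2.70, 2.33, 3.28 and 3.05 CPM and then at 20.4, 20.1, 10.8 and 31.8 CPM (2.88). In each of these genes every 3-day library was above every library without DT.

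Serping1, the C1 inhibitor of the complement cascade, was at 90.2, 84.7, 129 and 69.1 CPM without DT and at 4.63, 6.26, 3.90 and 4.83 CPM at 3 days (−4.24, SE 0.22, adjusted p = 1.5e-15, edgeR quasi-likelihood test). The kininogen genes Kng1 (−4.38) and Kng2 (−5.42), near-identical copies between which reads can be split, changed in the same direction.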
